A study of Mus musculus with 12 samples.

Results

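ARF GTPase-activating proteins (ARF GAPs) switch off the ARF family of small GTPases, and 10 genes of this family were examined in the hippocampus of mice after a single episode of restraint stress. They were Arfgap1, Arfgap2, Arfgap3, Asap1, Asap2, Agap1, Agap2, Agap3, Acap2 and Git1, found by symbol among 23953 gene symbols in the deposited RNA tables. For each gene the level of its transcripts and the number and place of 5-hydroxymethylcytosine (5hmC) peaks in its body were taken. They were selected on stress against control values of these same data, 5hmC peaks and RNA levels, so every difference between the groups is given as a description, with no test.

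Hippocampus was taken from male C57BL/6 mice with no stated mutation or transgene, which the sample tags place at postnatal day 28 and the protocol at 7 weeks of age. The stress group, 6 mice, was restrained for 30 min starting 2 h after lights on and was left for 1 h before collection. The control group, 5 naive mice, was not restrained, and no time of day is given for it. Animals of both groups were briefly anaesthetised with isoflurane. DNA was pooled from at most 2 mice, which gave 3 stress and 3 control libraries of 5hmC-bearing DNA fragments, and RNA of the same pools was summarised in 1 table per group.

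An ARF protein loaded with GTP sits on a membrane of the Golgi, an endosome or the cell surface and recruits coat proteins, lipid kinases and actin regulators. Exchange factors load the GTP, and an ARF GAP makes the ARF protein hydrolyse it, which ends the signal and lets the coat come off. In neurons the cycle runs in secretory traffic, in the recycling of receptors from endosomes and in the shaping of dendritic spines. 5hmC arises when the TET enzymes oxidise methylated cytosine, and it is abundant in the bodies of neuronal genes.

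The 6 peak lists differed in length in both groups. Stress libraries 1, 2 and 3 held 15195, 27797 and 31654 peaks, and control libraries 1, 2 and 3 held 17186, 27916 and 16327 peaks. Stress libraries 2 and 3 and control library 2 were therefore the long lists. The labels give 1 range of mapped reads for all libraries and no figure for a single one. The short lists were 1 of stress and 2 of control. For genes whose order or direction differed on lists cut to equal length, those values are given as well.

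The start sites of these genes are rich in CG pairs, the sites where cytosine methylation and 5hmC are mostly found. RefSeq promoters of build GRCm38.p6, each of 250 bases before and 50 bases after a start, were matched by symbol for 8 of the 10 genes, which have 10 promoters in the table. The Agap1 promoter held 50 CG pairs, the Agap3 promoter 48, and the Git1 promoters 32 and 48. Arfgap3 held 33, Acap2 28, each of the Arfgap1 promoters 27, Arfgap2 21 and Agap2 13. The median over all 32841 promoters in the table was 7. At least 50 were found in 0.856% of them, at least 33 in 8.56% and at least 13 in 37.9%, and 94.6% held at least 1. The promoters of Arfgap3 (GRCm38.p6, chr15:83350198-83350497, minus strand) and Agap1 (GRCm38.p6, chr1:89454561-89454860, plus strand) are shown because these genes had the highest and the lowest log2 ratio of 5hmC peak density, stress over control, among the 7 genes with a mean above 0 in both groups. They are written 5′ to 3′ along the gene with CG pairs in capitals. CG pairs read the same on both strands.
Arfgap3: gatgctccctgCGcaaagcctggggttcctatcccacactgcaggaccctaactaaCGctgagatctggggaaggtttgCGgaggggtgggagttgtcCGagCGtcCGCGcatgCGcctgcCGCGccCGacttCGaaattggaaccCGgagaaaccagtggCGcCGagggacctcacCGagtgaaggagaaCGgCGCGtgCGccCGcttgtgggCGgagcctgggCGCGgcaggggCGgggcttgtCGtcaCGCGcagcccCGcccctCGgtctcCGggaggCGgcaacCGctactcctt
Agap1: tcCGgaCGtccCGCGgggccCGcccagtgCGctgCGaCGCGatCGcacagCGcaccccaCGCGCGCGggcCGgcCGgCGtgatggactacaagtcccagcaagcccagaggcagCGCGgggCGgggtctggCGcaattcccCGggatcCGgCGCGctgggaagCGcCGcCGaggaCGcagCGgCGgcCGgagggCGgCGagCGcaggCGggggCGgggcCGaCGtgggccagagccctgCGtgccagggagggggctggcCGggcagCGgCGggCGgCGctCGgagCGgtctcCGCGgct

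A peak within 1 kb of an annotated start was found for 1 of the 10 genes, Asap1, and in stress library 1 alone, while 15.6% of the 23641 genes with a single locus had such a peak in at least 1 library. With 10 genes the 2 shares are close. Positions of 5hmC peaks below are those of build mm9, which the deposited files use.

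All 10 genes had a peak in at least 1 library, as did 12593 of the 23641 genes with a single locus. The 13 other ARF GAPs read below all had one too. Their bodies, 1160 kb in sum, held 17, 26 and 31 peaks in stress libraries 1, 2 and 3 and 21, 29 and 15 peaks in control libraries 1, 2 and 3. The count followed the length of the lists and the groups overlapped. Per 100 kb of gene body the summed density was 2.13 ± 0.611 in stress and 1.87 ± 0.605 in control libraries (SD, n = 3 each), a difference smaller than the spread within either group. In each of the 6 libraries it was above the density over all gene bodies, which was 1.55 ± 0.526 in stress and 1.24 ± 0.390 in control libraries.

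Gene length sets how much these counts can show. Agap1 (440 kb), Asap1 (296 kb), Asap2 (158 kb) and Acap2 (109 kb) are long, and at the density of all gene bodies 6.13, 4.12, 2.21 and 1.52 peaks per library would lie in them. In the short genes Agap2, Git1, Arfgap1 and Arfgap2 that number is between 0.171 and 0.213, so most libraries at that density would have no peak there. Among 13851 genes of at least 10 kb, the mean density over the 6 libraries was at the 95.9th percentile for Arfgap1, the 93.5th for Agap3 and the 93.3rd for Arfgap3. The other 7 genes were between the 48.4th and the 68.5th percentile.

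**Figure D1:**
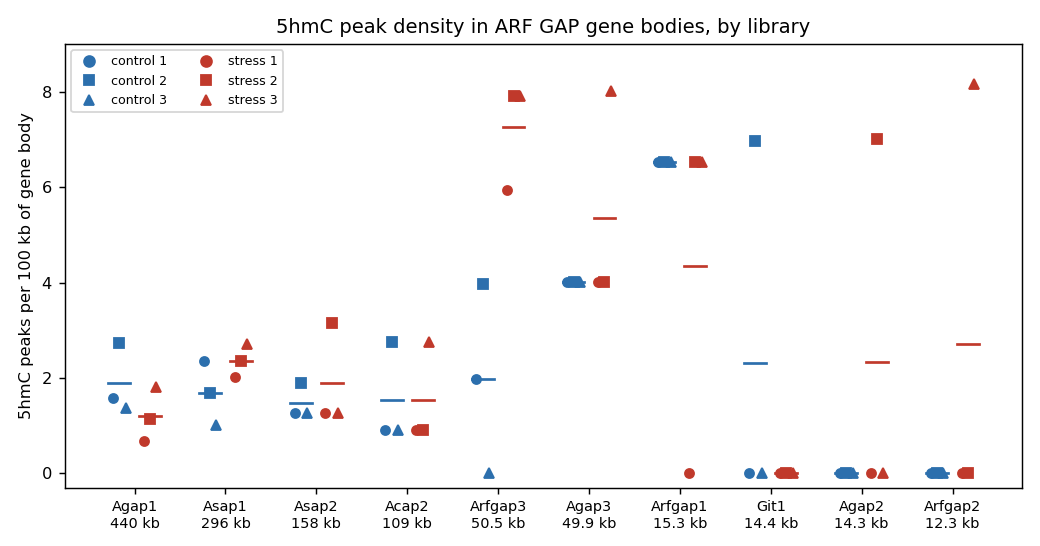
Number of 5hmC peaks per 100 kb of gene body (vertical axis) for the 10 ARF GAP genes, ordered by body length; each symbol is 1 library and each bar a group mean of 3 libraries. The 3 stress libraries of Arfgap3 lie between 5.94 and 7.92 peaks per 100 kb, all above its control libraries at 0 to 3.96, while the groups overlap or tie in the other genes.

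The ARFGAP proteins act at the Golgi, where they drive GTP hydrolysis on ARF1 during the cycle of COPI-coated vesicles that return cargo to the endoplasmic reticulum. Arfgap3 (chr15:83130170-83180677, minus strand, 50.5 kb) had 3, 4 and 4 peaks in stress libraries 1, 2 and 3, and 1, 2 and 0 peaks in control libraries 1, 2 and 3. Every stress library was above every control library, and the shortest stress list still held more peaks in this gene than the longest control list. The density was 7.26 ± 1.14 peaks per 100 kb in stress and 1.98 ± 1.98 in control libraries (SD, n = 3 each), a log2 ratio of 1.87.

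The percentage of the Arfgap3 body under peaks gave the same order. It was 7.56%, 15.0% and 9.96% in stress libraries 1, 2 and 3 and 1.95%, 3.85% and 0% in control libraries 1, 2 and 3. Among the 12593 genes with a peak in at least 1 list, 2.8% had a density above every control library in every stress library, and among those with bodies of 30 to 100 kb the share was 2.71%. The family had 1 such gene of 10, and none with a density below every control library in every stress library, against 0.604% of genes.

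The peaks of all lists were merged into regions where they overlapped, and a region with a peak in all 3 libraries of 1 group and in none of the other group is called stress-only or control-only below. Arfgap3 has 2 stress-only regions among its 6 regions. The first (chr15:83134183-83136998) lies in intron 14 of the 16-exon transcript NM_025445, close to the 3′ end of the gene. Its peaks scored above 82.2%, 96.2% and 24.6% of the peaks of their own lists in stress libraries 1, 2 and 3. The second (chr15:83154440-83155720) lies near the middle of the body, and its peaks reach exon 8 in stress libraries 1 and 3 and end short of it in stress library 2. The peaks scored above 72.0%, 32.9% and 84.5% of their lists. Scores are the authors' values and were read only within a list.

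A further Arfgap3 region in intron 1 (chr15:83175147-83177276), 3.40 kb from the start, had a peak in all 3 stress libraries and in control library 1. Control library 2 alone had a peak on exon 2 (chr15:83172705-83173530) and shared 1 region in intron 9 with stress library 3. Genes with at least 1 stress-only region were 4.61% of those with a peak and 4.11% of those with bodies of 30 to 100 kb. At least 2 were found in 0.135% and 0.0747%. When each list was cut to its 15195 top-scoring peaks, the Arfgap3 density was 5.94, 5.94 and 3.96 peaks per 100 kb in stress libraries and 1.98, 0 and 0 in control libraries, so the groups stayed apart. Neither stress-only region of Arfgap3 was then found. Divided by the density over all gene bodies of the same library, Arfgap3 stood at 6.20, 4.59 and 4.04 in stress and at 1.89, 2.35 and 0 in control libraries 1, 2 and 3, again without overlap, as did 3.67% of genes with a peak and 3.78% of those with bodies of 30 to 100 kb.

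Arfgap3 RNA was the lowest of the 10 genes and the only member lower in the stress table before centring on the median of all genes, which put 5 of the 10 below 0, with 2.99 FPKM (fragments scaled to transcript length and to the size of the library) in the control and 2.82 FPKM in the stress table. The difference was -0.06 on the log2(FPKM + 1) scale, which is used for all RNA differences here. All RNA values rest on 1 table per group and have no replicate error. In bulk tissue, fewer cells of a type and less RNA per cell cannot be told apart.

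Arfgap1 (chr2:180701930-180717229, plus strand) carried 1 peak region (chr2:180703400-180706191) that begins 1.40 kb downstream of the nearest start. It was found in control libraries 1, 2 and 3 and in stress libraries 2 and 3, and was missing from stress library 1, the shortest list. The peak of stress library 2 reaches exon 2, and those of the other 4 libraries end before it, in intron 1. The difference in mean density was -2.18 peaks per 100 kb and turned to 2.18 when only the upper 50% of each list by score was kept. The peak of the region scored above 94.4% and 56.6% of the lists of stress libraries 2 and 3. In control libraries 1, 2 and 3 it scored above 47.2%, 6.53% and 56.0%. The gene sum of RNA was 12.3 FPKM in the control and 12.7 FPKM in the stress table.

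Arfgap2 (chr2:91105272-91117528, plus strand), the closest relative of Arfgap3 in sequence and role, had 1 peak in all, in stress library 3, in intron 10 of its 16-exon transcript. Its RNA was 3.19 FPKM in the control and 3.24 FPKM in the stress table. The 5hmC pattern of Arfgap3 was thus not seen in Arfgap2, whose body of 12.3 kb would hold 0.171 peaks per library at the density of all gene bodies.

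**Figure D2:**
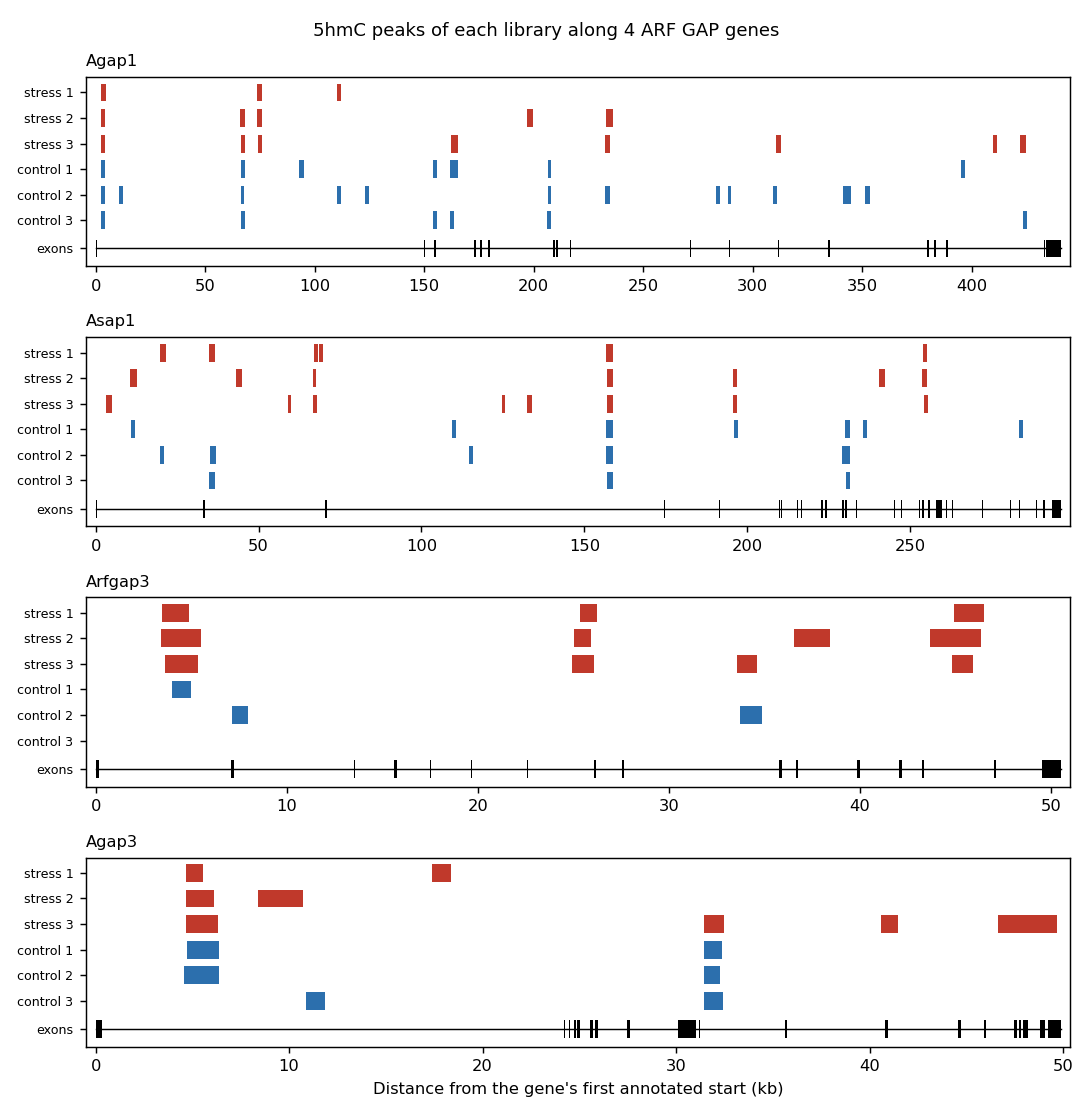
5hmC peaks of each library (coloured blocks) and annotated exons (black) along Agap1, Asap1, Arfgap3 and Agap3; the horizontal axis is the distance in kb from the first annotated start of each gene, in the direction of transcription. Arfgap3 has 2 stress-only regions, Asap1 has 2 stress-only and 1 control-only region, and Agap1 has 1 of each.

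The ASAP proteins carry a BAR domain that senses membrane curvature and an SH3 domain, and they link ARF signalling at the cell surface to focal adhesions and actin. Asap1 (chr15:63918402-64214481, minus strand) had 6, 7 and 8 peaks in stress libraries 1, 2 and 3 and 7, 5 and 3 peaks in control libraries 1, 2 and 3. Control library 1 lay among the stress libraries, so the groups overlapped. The density was 2.36 ± 0.338 peaks per 100 kb in stress and 1.69 ± 0.675 in control libraries (SD, n = 3 each). On lists cut to the same covered length it was 2.03, 1.35 and 1.01 in stress and 2.36, 1.35 and 1.01 in control libraries 1, 2 and 3, and the difference of the means turned from 0.68 to -0.11.

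Asap1 had 2 stress-only regions and 1 control-only region among 19. At least 2 stress-only regions were found in 0.67% of the genes with bodies of at least 100 kb. The first stress-only region (chr15:64146345-64147768) ends 2.11 kb upstream of the internal start used by the transcript NM_001276462 and lies in an intron of the longer transcripts. Its peaks scored above 46.0%, 93.7% and 84.2% of their lists in stress libraries 1, 2 and 3. Stress library 1 had another peak (chr15:64144847-64145834) between that region and the internal start, 0.612 kb from it, and this is the promoter peak named above.

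The second stress-only region of Asap1 (chr15:63959274-63961034) ranked low, with peaks above 9.58%, 36.5% and 31.2% of their lists. The peak of stress library 2 touches exon 15 of the 28 exons of NM_001276462, and those of stress libraries 1 and 3 lie just past it. The control-only region (chr15:63982988-63985560) touches exon 10 in control libraries 1 and 2 but not in control library 3, and scored above 84.6%, 87.2% and 47.3% of the lists of control libraries 1, 2 and 3. A group-only region of either kind was therefore found in the same gene in both directions. Stress-only and control-only regions together occurred in 0.111% of genes with a peak and in 0.622% of those with bodies of at least 100 kb, and Asap1 and Agap1 are both of that kind.

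Asap1 also held a region with a peak in all 6 libraries (chr15:64055676-64057885), in intron 1 of NM_001276462. It scored above 71.9%, 88.7% and 95.2% of the lists of stress libraries 1, 2 and 3, and above 87.1%, 90.4% and 98.1% of those of control libraries 1, 2 and 3. Asap1 RNA was 8.30 FPKM in the control and 8.56 FPKM in the stress table, a difference of 0.04.

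Asap2 (chr12:21117617-21276032, plus strand) had 2, 5 and 2 peaks in stress and 2, 3 and 2 peaks in control libraries 1, 2 and 3. The highest count of each group came from its library 2, and the other 4 libraries were equal. The difference in mean density, 0.42 peaks per 100 kb, turned to -0.42 on lists of the same covered length and to -0.21 without stress library 2. A region in intron 1 (chr12:21135056-21137235) had a peak in the 3 control libraries and stress library 2, and a region in intron 12 (chr12:21231691-21232992) had one in the 3 stress libraries and control library 2. Asap2 RNA was 5.05 FPKM in the control and 5.57 FPKM in the stress table. The 3′ end of Asap2 overlaps Itgb1bp1 on the opposite strand by 366 bp, and Itgb1bp1 was at 4.72 FPKM in the control and 3.83 FPKM in the stress table. Agap1 overlaps 4933400F21Rik, at 0.616 FPKM in the control and 0.521 FPKM in the stress table, on the opposite strand by 7386 bp. Acap2 shares 108826 bp, its whole body, with the annotated span of Mir1195 on the same strand, which was at 0 FPKM in both tables.

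The AGAP proteins join an ARF GAP domain to a GTPase-like domain. AGAP1 acts on endosomes with the AP-3 adaptor, and AGAP2, also called PIKE, binds phosphoinositide 3-kinase and AKT. Agap1 (chr1:91351386-91791857, plus strand) had 3, 5 and 8 peaks in stress libraries 1, 2 and 3 and 7, 12 and 6 peaks in control libraries 1, 2 and 3. Stress library 3, the longest list, lay among the control libraries, and stress libraries 1 and 2 were below all of them. The density was 1.21 ± 0.571 peaks per 100 kb in stress and 1.89 ± 0.730 in control libraries (SD, n = 3 each), a log2 ratio of -0.64.

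The order of the Agap1 libraries differed with the way list length was treated. On lists with the same number of peaks the density was 0.681, 0.908 and 0.908 in stress and 1.36, 0.908 and 1.36 in control libraries 1, 2 and 3, so control library 2 tied with stress libraries 2 and 3. With the same covered length it was 0.681, 0.908 and 0.681 in stress and 1.59, 0.908 and 1.36 in control libraries, again with a tie. Divided by the density over all gene bodies of the same library, Agap1 stood at 0.711, 0.657 and 0.925 in stress libraries 1, 2 and 3 and at 1.52, 1.62 and 1.40 in control libraries 1, 2 and 3. On that scale every stress library was below every control library. Such an order was found in 3.79% of genes with a peak and in 7.7% of those with bodies of at least 100 kb. Arfgap1 was the other member with it, since its single region was missing from the shortest stress list and its equal counts in the other lists were divided by larger totals.

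Agap1 also held a region found in every library, among its 20 regions. The region at chr1:91353806-91355981 begins 2.42 kb downstream of the start in intron 1 and had a peak in all 6 libraries. It scored above 96.1%, 98.3% and 90.9% of the lists of stress libraries 1, 2 and 3 and above 94.4%, 98.2% and 80.5% of those of control libraries 1, 2 and 3. Regions in all 6 libraries were found in 2 of the 10 genes, Asap1 and Agap1, against 6.18% of genes with a peak and 13.8% of those with bodies of at least 100 kb.

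Farther into intron 1 of Agap1, a region at chr1:91417383-91419432 was missing only from stress library 1. The stress-only region (chr1:91425049-91427208) follows it, 73.7 kb from the start, and scored above 69.4%, 79.2% and 26.7% of the stress lists. The control-only region (chr1:91557691-91559454) is in intron 6 and scored above 83.2%, 11.2% and 75.0% of the lists of control libraries 1, 2 and 3. Agap1 RNA was 10.9 FPKM in the control and 13.0 FPKM in the stress table, the largest of the 10 differences at 0.23.

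Agap3 (chr5:23957995-24007865, plus strand) is known as a component of the NMDA receptor complex that regulates AMPA receptor traffic. It had 2, 2 and 4 peaks in stress libraries 1, 2 and 3 and 2 peaks in each control library. Stress library 3 was the highest and the other 5 were equal. The difference in mean density, 1.34 peaks per 100 kb, turned to -0.67 on lists cut either to the same number of peaks or to the same covered length, and to -1.34 when only the upper 50% of each list by score was kept. A region in intron 1 (chr5:23962572-23964380) had a peak in every library except control library 3. Another (chr5:23989435-23990490) had one in the 3 control libraries and stress library 3, just downstream of the end of the short transcript at position 23989002. Agap3 RNA was 29.3 FPKM in the control and 30.9 FPKM in the stress table.

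Agap2 (chr10:126515963-126530225, plus strand) had the highest RNA level of the family, 67.4 FPKM in the control and 72.0 FPKM in the stress table, above 97.6% of the 11071 genes whose mean over the tables reached 1 FPKM. Its body carried a single peak, in stress library 2, over exons 6 and 7. At the density of all gene bodies 0.199 peaks per library would lie in it. Its mean 5hmC density was at the 48.6th percentile of genes of at least 10 kb.

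Acap2 (chr16:31092499-31201324, minus strand) acts on ARF6 in endosomal recycling. It had 1, 1 and 3 peaks in stress and 1, 3 and 1 peaks in control libraries 1, 2 and 3, and the mean density was 1.53 ± 1.06 per 100 kb in both groups. The 3 peaks came from the longest list of each group. Acap2 RNA was 13.2 FPKM in the control and 15.5 FPKM in the stress table, a difference of 0.22, close to that of Agap1.

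Git1 (chr11:77306914-77321276, plus strand) is a scaffold that brings PIX exchange factors and the kinase PAK to synapses and focal adhesions. It had a single peak, in control library 2, in intron 1 and 1.03 kb from the start. Git1 RNA was 28.9 FPKM in the control and 31.5 FPKM in the stress table, a level above 91.6% of genes. For Agap2 and Git1 the deposited FPKM lies outside the interval deposited beside it, so those intervals were not used as errors.

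Taking the family as a set of places, its 71 regions were as scattered between libraries as those of other genes. Of them 40 (56.3%) were found in 1 library only, against 55.3% of 43532 regions in all gene bodies. Regions in all 6 libraries made up 2.82% in the family and 1.80% in all gene bodies. Exons were touched by 18 regions, or 25.4%, against 35.1%. The median region was 1577 bp long in the family and 1082 bp in all gene bodies. In sum the family held 5 stress-only and 2 control-only regions, in 3 and 2 of the 10 genes. Among all 74450 regions, in and outside gene bodies, 847 were stress-only and 276 control-only. A stress-only region was found in 4.61% of genes with a peak and in 4.11% of those with bodies of 30 to 100 kb. Genes with a control-only region were 1.24% of those with a peak and 4.02% of those with bodies of at least 100 kb, a class in which 9.56% had a stress-only region.

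In RNA, 9 of the 10 genes were above 0 in the stress table relative to the control table, and so were 69.4% of the 11071 genes kept. Subtracting the median of all genes, which puts that median at 0, left 5 of the 10 above 0. The median of the 10 differences was 0.08, and the median over all genes was 0.08 too. On the scale with 1 FPKM added, none of the 10 was at least 25% higher or at least 20% lower in the stress table (the same fold in both directions), against 7.71% and 3.52% of genes. The family lay in the middle of the genes measured, with 5 of its 10 members above the median. Set side by side, Arfgap3, whose 5hmC densities did not overlap, differed by -0.06 in RNA, and the genes with the largest RNA differences, Agap1 and Acap2, had 5hmC log2 ratios of -0.64 and 0.

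**Figure D3:**
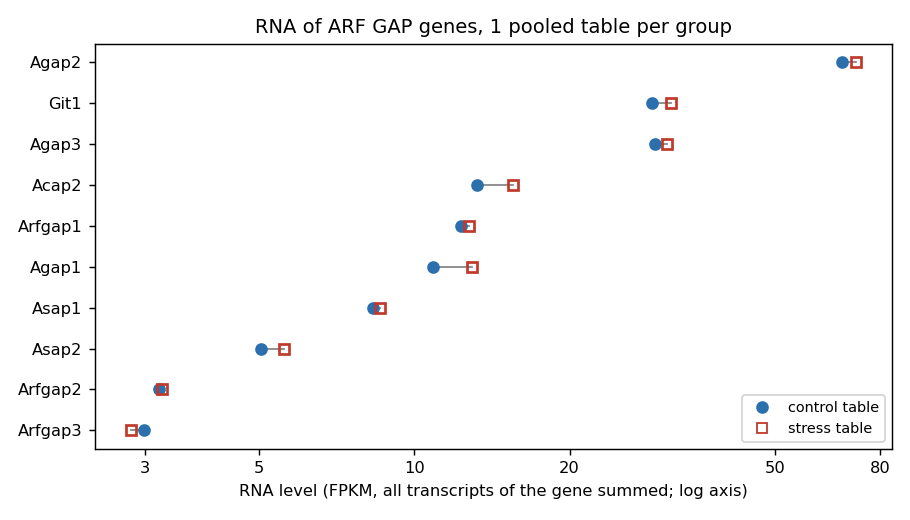
RNA level of the 10 ARF GAP genes in the control table (circles) and the stress table (squares), in FPKM summed over transcripts on a log axis. Each symbol is 1 pooled table with no replicate; the levels range from 2.82 FPKM for Arfgap3 to 72.0 FPKM for Agap2, and Arfgap3 is the only gene lower in the stress table as deposited, against 5 after centring on the median of all genes.

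Several transcripts differed more between the tables than the sums of their genes. Agap1 has 2 annotated transcripts, NM_178119 with 18 exons and NM_001037136, which lacks exon 12. NM_178119 was at 6.22 FPKM in the control and 11.2 FPKM in the stress table, or 57.1% and 86.5% of the gene sum. NM_001037136 was at 4.66 FPKM in the control and 1.75 FPKM in the stress table. The share of each transcript differed by 29.4 percentage points between the tables. The skipped exon is 159 nt long (chr1:91662881-91663039), so the split rests on reads over that exon and its junctions, and it lies inside a merged 5hmC region (chr1:91660940-91664043). The peak of stress library 3 covers the exon, and the peak of control library 2 in that region ends before it. No other library had a peak in that region, and a link between it and the transcript shares was not tested.

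Arfgap1 had the next largest difference. NM_145760, its 14-exon transcript, was at 3.06 FPKM (24.8% of the sum) in the control and 0.540 FPKM (4.24%) in the stress table, while NM_001177709, the main transcript, was at 9.11 and 10.3 FPKM. NM_001177707 and NM_001177710 were listed at 0 in the control and at 1.06 and 0.653 FPKM in the stress table. These transcripts share most exons, and their levels are estimates from the same reads.

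The long Asap1 transcript NM_001276461 was at 3.55 FPKM in the control and 2.72 FPKM in the stress table, a share of 42.8% and 31.7%. NM_001276462, which begins at the internal start downstream of the stress-only region, was at 4.75 and 5.17 FPKM, a share of 57.2% and 60.4%. NM_010026, which begins at the same start as NM_001276461, was listed at 0 and at 0.667 FPKM, or 0% and 7.79% of the sum. A link between the stress-only region and these shares was not tested. For Agap3 the short 9-exon transcript NM_001256431 was at 21.8 and 20.6 FPKM and the 18-exon transcript NM_139153 at 7.53 and 10.3 FPKM in the control and stress tables, a difference of 7.71 points in share. For Asap2, NM_001004364 was at 4.36 and 5.23 FPKM and NM_001135192 at 0.690 and 0.338 FPKM.

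Large differences in share were common between these tables. Among 3211 genes kept at the same FPKM limit that have at least 2 transcripts, 24.2% had a transcript whose share differed by at least 25 points, a limit chosen after the values were seen, and the median of the largest difference per gene was 8.5 points. Agap1 passed that limit and Arfgap1 did not. Agap2, Arfgap3, Acap2 and Git1 have 1 annotated transcript, and for Arfgap2 practically all RNA was assigned to 1.

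**Figure D4:**
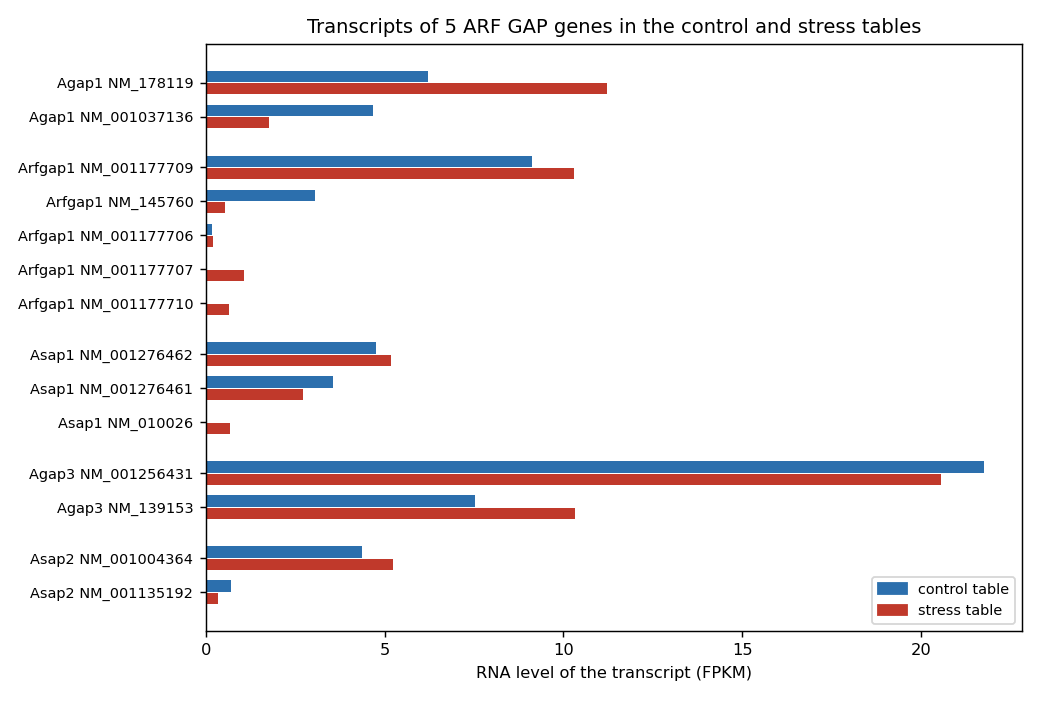
RNA level in FPKM of the annotated transcripts of Agap1, Arfgap1, Asap1, Agap3 and Asap2 in the control and stress tables, transcripts with at least 0.1 FPKM in either table; bars start at 0 and each is 1 pooled table with no replicate. The Agap1 transcripts differ in opposite directions, NM_178119 from 6.22 to 11.2 FPKM and NM_001037136 from 4.66 to 1.75 FPKM.

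The rest of the ARF cycle was read from lists of 34 other genes, of which 30 reached the FPKM limit. Their median RNA difference was 0.11, and 18 of the 30 were above the median of all genes. Among 10 other ARF GAPs the median was 0.01. The highest were Agfg1, whose product binds proteins of endocytosis, at 6.84 FPKM in the control and 9.02 FPKM in the stress table, and Smap1, a GAP for ARF6 in endocytosis, at 25.0 and 28.8 FPKM. The lowest were Arap1 (1.20 and 0.957 FPKM) and Arap2 (10.7 and 10.3 FPKM).

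For the 6 ARF GTPases themselves the median was 0.04. Arf6, the ARF of the cell surface and endosomes, was at 7.89 FPKM in the control and 9.84 FPKM in the stress table, a difference of 0.29, and Arf3 was at 246 and 273 FPKM. Arf1, the main ARF of the Golgi and the substrate of the ARFGAP proteins, was at 49.3 and 43.4 FPKM, a difference of -0.18, and Arf5 differed by -0.04. Arf1 to Arf5 are close in sequence, and how far reads were shared between them was not tested.

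For the exchange factors, 14 genes over the FPKM limit, the median was 0.15. Cyth3 (GRP1), a cytohesin recruited by phosphoinositide 3-kinase products, was at 5.99 FPKM in the control and 8.69 FPKM in the stress table, a difference of 0.47. Cyth2, its relative that acts on ARF6, was at 5.88 and 7.22 FPKM. The lowest were Fbxo8 at 2.61 and 2.31 FPKM and Psd, an ARF6 exchange factor of brain, with a difference of 0.02. On the scale with 1 FPKM added, Cyth3 and Agfg1 were the only ones of the 30 at least 25% higher. None was at least 20% lower on that scale. Of the 11071 genes kept, 7.71% were higher and 3.52% lower by these limits.

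In 5hmC none of the 34 genes had stress and control densities that did not overlap. Among genes with a peak, 2.8% had a higher and 0.604% a lower density in every stress library. Acap3, a GAP related to Acap2, and Cyth3 each had 1 stress-only region, and the exchange factors Iqsec1 and Psd3 each had 1 control-only region. Cyth3, which had the highest RNA difference of the lists, had 1, 3 and 1 peaks in stress and 1, 0 and 1 peaks in control libraries 1, 2 and 3. A link between its 5hmC and its RNA was not tested. Acap3 had 1, 2 and 1 peaks in stress and 0, 1 and 1 peaks in control libraries 1, 2 and 3, and its RNA differed by -0.0019. Regions in all 6 libraries were found in Asap3, Arf3, Cyth1 and Iqsec1. Of all genes with a peak, 4.61% had a stress-only region, 1.24% a control-only region and 6.18% a region in all 6 libraries. Iqsec1 (151 kb) and Psd3 (285 kb) are long, and 4.02% of genes with bodies of at least 100 kb had a control-only region.

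**Figure D5:**
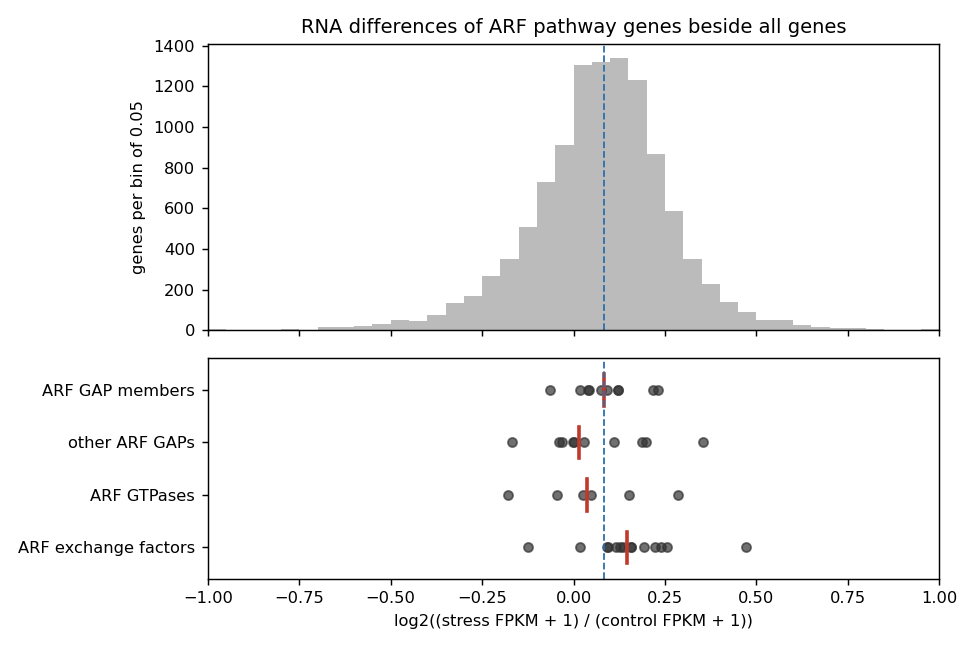
Top, number of genes per bin of 0.05 of the log2 RNA difference, stress over control with 1 FPKM added, for all genes over the FPKM limit; 66 genes beyond 1 in either direction are not drawn. Bottom, single genes of 4 lists (points), the median of each list (red bars) and the median of all genes (dashed line, 0.08); the 10 ARF GAP members lie between -0.06 and 0.23.

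Markers of the tissue and of the treatment were read in the same tables. Of the 6 markers of excitatory neurons 4 were higher and 2 lower in the stress table. Higher, in the control and stress tables, were Zbtb20 at 21.0 and 29.1 FPKM, Prox1 at 23.8 and 29.1 FPKM, Camk2a at 338 and 383 FPKM and Slc17a7 at 118 and 123 FPKM. Lower were Wfs1 at 19.0 and 18.7 FPKM and Neurod6 at 46.8 and 40.3 FPKM. The 4 glucocorticoid-induced genes were all at least 25% higher in the stress table, Sgk1 at 7.34 and 21.9 FPKM and Fkbp5 at 5.55 and 10.2 FPKM in the control and stress tables. All 5 choroid plexus markers were at least 20% lower in the stress table, with a sum of 229 FPKM in the control and 63.2 FPKM in the stress table. Summed markers of oligodendrocytes were at 1347 and 1180 FPKM, of astrocytes at 255 and 297 FPKM, of excitatory neurons at 567 and 624 FPKM and of microglia at 18.9 and 18.3 FPKM. The sums join markers of both directions. Higher in the stress table were 1 of the 6 oligodendrocyte markers, 2 of the 4 microglial markers and all 4 astrocyte markers. The part of these markers in the RNA differences of the ARF genes was not tested.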

How the data were processed

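DNA fragments of about 300 bp that carry 5hmC were labelled chemically, captured and sequenced as 50 nt single reads, per the labels' protocols. Per the submitters' processing notes, Bowtie 0.12.9, edgeR and build mm9 were used for 5hmC. The authors deposited 1 list of peaks per library, each peak with a score of at least 50 and a name of the kind MACS gives. Neither the caller's version nor an input library is named there. For RNA, 100 nt paired reads, the authors deposited 1 table per group with FPKM for each of 33262 RefSeq transcripts, in Cufflinks format; TopHat 1.0.12, Cufflinks 2.1.1 and Cuffdiff 2.1.1 are named in the same notes. The ratio of coverage to FPKM, a measure of depth, was 8.14 for controls and 9.22 for stress.

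Samples were grouped by their labels. A gene body ran from the first start to the last end of the transcripts in the RNA tables, and 272 genes at several loci were left out of the 5hmC counts. A peak was assigned to a body, and peaks were merged into regions, by an overlap of at least 1 bp, on chromosomes 1 to 19, X and Y (1 to 4 peaks per list lay elsewhere). FPKM were summed per gene, and RNA differences are log2((stress + 1)/(control + 1)), which understates changes of low genes. A gene was kept where its mean over both tables reached 1 FPKM. Counting that ignores strand cannot part reads of overlapping genes, and whether strand was used is not stated. Scripts used Python 3.11.15 and NumPy 2.4.6, and were tested on simulated data.

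The members, the wider lists and the markers were chosen with earlier results of these data known. Named genes are all members, the 2 highest and 2 lowest RNA differences of each wider list, and list genes with a group-only region. The replicates are pools of mice, and no p-value was computed. Alternatives were lists cut to equal numbers of top-scoring peaks or to equal covered length, the higher-scoring 50% of each list, bodies extended by 5 kb, percent of body covered, peaks assigned by their centre, density relative to all gene bodies, libraries covering at least 50% of a region, gaps up to 200 bp bridged and leaving out each library. Those for RNA were 0.1 as pseudocount, no filter, subtracting the median of all genes, and taking each gene's most abundant isoform.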

Additional observations from a re-analysis of the deposited data

How the results depend on the processing

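Arfgap3 had the higher density in every stress library under each alternative run. Leaving out 1 library gave 1 to 2 such genes, Asap1 being added without control library 1. The count with lower density was 0 and became 2 relative to all gene bodies (Agap1 and Arfgap1), and it ranged from 0 to 1 with libraries left out (Agap1 without stress library 3).

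The number of group-only regions differed between the alternatives. Lists were cut by score, so an effect of list length alone was not tested. The 5 stress-only regions became 1 with the same number of peaks per list, 1 with the same covered length and 0 with the higher-scoring 50%, and ranged from 5 to 6 with a library left out. Under the rule that a library covers 50% of a region the count was also 5, but the Arfgap3 region in intron 14 lost its place and the Arfgap3 region in intron 1 took it. The 2 control-only regions became 1 with the same number of peaks, 0 with the higher-scoring 50% and 1 under that rule, and ranged from 2 to 4. With equal number or equal covered length, the stress-only region upstream of the internal Asap1 start and the Asap1 control-only region were still found, and those of Arfgap3 and Agap1 were not. Both regions found in all 6 libraries were found under every alternative, with 2 to 4 such regions when a library was left out.

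The median log2 ratio of density was 0.36 over the 7 members with a mean above 0 in both groups. It became 0.0 with the same number of peaks, -0.26 with the same covered length and -0.029 with the higher-scoring 50%. It was 0.10 with bodies extended by 5 kb, 0.44 as percent covered and 0.039 relative to all gene bodies. With a library left out it ranged from 0.0 to 0.58. Before these alternatives, the median over the 8520 genes that met the same condition was 0.05.

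The median RNA difference of the members, 0.08, was 0.085 with a pseudocount of 0.1, 0.00075 after centring and 0.11 for the most abundant isoform. Centring turned Asap1 to -0.043, Agap3 to -0.0083, Arfgap1 to -0.040 and Arfgap2 to -0.064, and the isoform setting turned Agap3 to -0.078. The wider pathway, 0.11, was 0.14 with a pseudocount of 0.1, 0.094 without a filter, 0.031 after centring and 0.092 for the isoform. At least 25% higher there was 1 member, Agap1, for the isoform, as were 11.2% of all genes. The cause of these differences was not tested.

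No paired analysis was possible because the results are descriptions without a test, no label ties stress and control pools of the same number, and RNA has 1 table per group. With 3 pools per group and 0 to 12 peaks per gene and library, small differences were not detectable.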
